A study of Mus musculus with 7 samples.

Results

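Hemoglobin transcripts were counted in every barcode of 7 libraries of single cells from the small vessels of mouse brain. The members were the 5 rows whose symbols are Hbb-bs, Hbb-bt, Hba-a1, Hba-a2 and Alas2, out of 32285 gene rows. They were measured in all 43091 barcodes. A barcode tags the RNA of one droplet, and a UMI, a random tag on each captured RNA molecule, lets molecules rather than reads be counted. All mice were C57Bl6 and untreated. The libraries came from mice aged 12 months (3 libraries) and 3 months (4 libraries). One hemisphere without cerebellum, brain stem and olfactory bulbs was digested with collagenase, and vessel cells were pulled out with magnetic beads against CD31, a surface protein of endothelial cells that platelets also carry. The labels do not say whether each library came from a separate animal, so the p-values below measure the spread between libraries, which may in part be technical.

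Adult hemoglobin is a tetramer of alpha chains and beta chains, each holding a heme group. Mice encode the adult alpha chain in the neighbouring genes Hba-a1 and Hba-a2, and C57Bl6 mice encode the adult beta chain in Hbb-bs and Hbb-bt. Alas2 is the erythroid form of the first enzyme of heme synthesis. Red cells lose their nucleus while they mature, and young red cells, the reticulocytes, still carry globin messenger RNA in the blood. Blood left in brain vessels can therefore bring globin RNA into a vessel preparation, both inside red cells and as free RNA.

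The beta genes lie on chromosome 7 at chr7:103826534-103828096 for Hbb-bs and chr7:103812524-103813996 for Hbb-bt, both on the minus strand (GRCm38). They are separated by 12537 bases. The alpha genes lie on the plus strand of chromosome 11 at chr11:32283511-32284465 for Hba-a1 and chr11:32296489-32297298 for Hba-a2, 12023 bases apart. Alas2 is on the plus strand of the X chromosome at chrX:150547375-150570638. The Hba-a1 and Hba-a2 transcripts aligned over 537 identical bases with 1 mismatch, so how the authors' counting divided reads between them is uncertain and the alpha genes are mostly summed below. The Hbb-bs and Hbb-bt transcripts were 93.8% identical where aligned, and 82.7% identical over their last 200 bases, where this 3′ assay reads.

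The 250 bases before each gene's start site are shown because the members appear together in the same barcodes and because the alpha and beta genes share known erythroid promoter elements. Sequences and start sites are RefSeq's (GRCm38.p6), read 5′ to 3′ on the gene's own strand. The gene models behind the coordinates above begin inside these windows. Capitals mark the CACCC element, the CCAAT box, the TATAA box and the GATAAG element on either strand, so that overlapping matches form one run. All 5 members matched in the promoter table. The Hba-a2 window is left out because it matched the Hba-a1 window at all 247 aligned bases.
Hbb-bs, chr7:103827929-103828178, minus strand: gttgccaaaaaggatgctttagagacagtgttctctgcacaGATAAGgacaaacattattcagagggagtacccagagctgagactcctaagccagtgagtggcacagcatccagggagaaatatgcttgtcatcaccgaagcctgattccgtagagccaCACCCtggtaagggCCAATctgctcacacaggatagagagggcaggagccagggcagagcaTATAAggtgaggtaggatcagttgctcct
Hbb-bt, chr7:103813924-103814173, minus strand: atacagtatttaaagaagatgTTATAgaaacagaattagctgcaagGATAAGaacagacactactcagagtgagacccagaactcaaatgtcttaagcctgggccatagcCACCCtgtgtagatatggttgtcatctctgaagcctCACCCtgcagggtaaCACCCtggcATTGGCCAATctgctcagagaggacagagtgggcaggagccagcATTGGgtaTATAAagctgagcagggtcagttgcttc
Hba-a1, chr11:32283422-32283671, plus strand: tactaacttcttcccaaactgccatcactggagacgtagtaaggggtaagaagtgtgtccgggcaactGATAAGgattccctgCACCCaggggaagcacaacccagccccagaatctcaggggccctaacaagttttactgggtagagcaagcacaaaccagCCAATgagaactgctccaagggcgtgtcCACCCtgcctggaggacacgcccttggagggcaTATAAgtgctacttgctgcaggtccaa
Alas2, chrX:150547167-150547416, plus strand: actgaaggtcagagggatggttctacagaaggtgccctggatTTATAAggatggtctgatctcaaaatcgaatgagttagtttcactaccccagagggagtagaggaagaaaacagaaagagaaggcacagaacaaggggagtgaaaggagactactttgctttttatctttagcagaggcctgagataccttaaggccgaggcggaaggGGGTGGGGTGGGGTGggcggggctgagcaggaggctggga
GATAAG, a form of the site bound by GATA factors, was found in the windows of 4 members and in 6.5% of 32851 windows of that length. It was not found in the Alas2 window, but other forms of the site were not searched for, so a GATA site there is not excluded. CCAAT stood in 4 members and 33.8% of all windows, again without Alas2. CACCC stood in all 5 members and 52.0% of all windows. TATAA also stood in all 5 members, and in 22.8% of all windows. In each globin window a match began at -30 to -27 from the start site. The only Alas2 matches began at -208 and -207. In Hbb-bt, CCAAT was read on both strands in the joined run ATTGGCCAAT. The Alas2 run TTATAA holds TATAA on both strands, and the Alas2 repeats GGGTG are CACCC on the other strand. The Hbb-bs and Hbb-bt windows were 77.4% identical where aligned. These letters describe the windows and show no binding.

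The deposited count tables held between 8706961 and 25493316 UMIs per library at 12 months, against 20041722 to 44861008 at 3 months. Median depth per barcode was 993, 2774 and 1804 UMIs in 12-month replicates 1, 2 and 3, and 2980, 4968, 4331 and 4879 UMIs in 3-month replicates 1, 2, 3 and 4. The 12-month libraries were labelled single index and their files name Cell Ranger 4.0.0, whereas the 3-month libraries were labelled dual index and name Cell Ranger 6.1.1. The ages therefore cannot be told apart from the library sets and their depths. Any 2 libraries shared at most 24 barcodes, or 0.373% of the smaller library. Some libraries stand apart. Replicate 1 at 12 months had the most barcodes without a member UMI and replicate 2 at 12 months the fewest, as given below, and replicate 1 at 3 months had the highest member share of its UMIs.

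The 5 members held 2580000 UMIs, and 85.9% of these were in 740 barcodes, 1.72% of all. Those 740 barcodes each gave 20% or more of their UMIs to the members, and they are called high-share barcodes here. At the other end, 26959 barcodes (62.6%) had no member UMI and 14963 had a share above 0 and under 1%. A further 429 barcodes lay between 1% and 20%. The distribution had no gap at the threshold: 72 barcodes lay at 15 to 20% and 73 at 20 to 25%, and the nearest barcodes on either side had shares of 19.8% and 20.0%. Just inside the threshold, the barcodes at 20 to 25% had 28.2% alpha UMIs, 2.28 Alas2 UMIs per 1000 globin UMIs and 14.9% Hbb-bt among beta UMIs. Just outside, barcodes at 15 to 20% had 29.0%, 2.09 per 1000 and 10.8%. In 199 barcodes the share was 80% or more, and in 142 it was 90% or more.

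**Figure D1:**
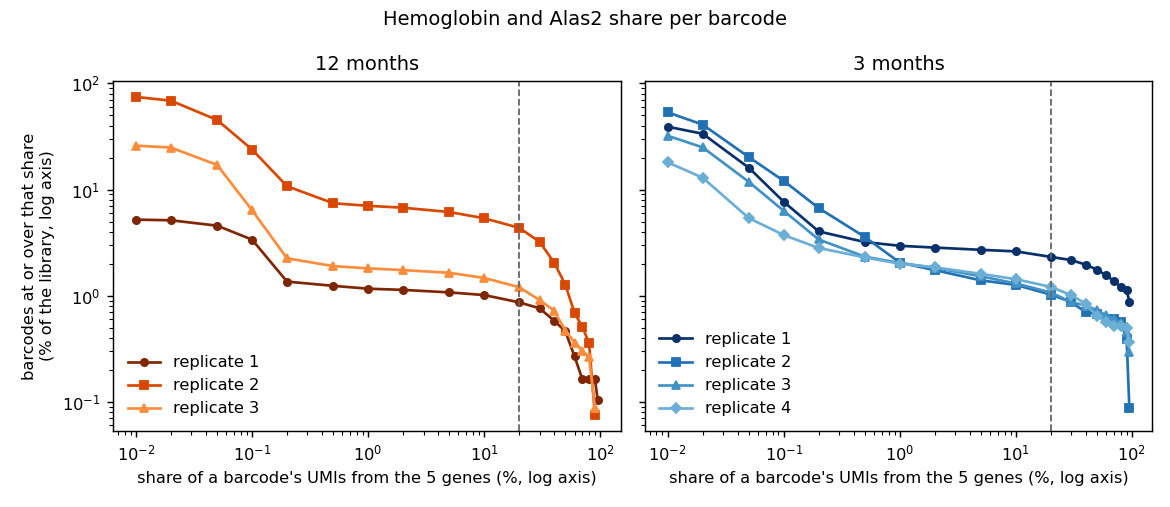
Percent of a library's barcodes (vertical, log axis) whose share of UMIs from the 5 members is at or over the value on the horizontal log axis, with 12-month libraries in the left panel and 3-month libraries in the right. The dashed line marks 20%, where 12-month replicate 2 has 4.36% of its barcodes to the right and the other 6 libraries have 0.866% to 2.32%.

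High-share barcodes numbered 58 of 6697, 291 of 6672 and 123 of 10213 in 12-month replicates 1, 2 and 3. These are 0.866% (exact 95% binomial interval 0.658 to 1.12), 4.36% (3.88 to 4.88) and 1.20% (1.00 to 1.44) of barcodes. In 3-month replicates 1, 2, 3 and 4 they numbered 103 of 4435, 47 of 4589, 69 of 6436 and 49 of 4049. The 3-month shares were 2.32%, 1.02%, 1.07% and 1.21%. Intervals cover counting error only. The groups overlapped, and one library in each group was far above the rest. The mean share was 2.14 ± 1.93% at 12 months (SD, n = 3) and 1.41 ± 0.615% at 3 months (n = 4), a difference of 0.737 percentage points (two-sided exact permutation test over 35 splits, p = 0.657, adjusted p = 0.771 over 7 comparisons by age). Without 12-month replicate 2 the difference was -0.372. From a library's total alone, more red cells and more RNA per red cell cannot be told apart. The members' share of all UMIs was 0.782%, 2.62% and 0.975% at 12 months and 3.00%, 0.866%, 0.914% and 1.01% at 3 months.

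The name erythroid was checked against other genes, and it held for only part of the high-share barcodes. In the 199 barcodes at 80% or more, a median of 76 genes was detected and 8 endothelial markers together gave 2.86 UMIs per 1000 UMIs outside the members. A median of 1651.5 genes and 20.2 endothelial marker UMIs per 1000 were found in the 394 barcodes at 20 to 50%. The 147 barcodes at 50 to 80% lay at 928 genes and 19.1 per 1000. Barcodes under 1% had 17.3 per 1000, so the endothelial level of barcodes at 20 to 80% was as high as that of the vessel cells. At least 5 endothelial UMIs were present in 99.2% of barcodes at 20 to 50%, in 89.8% at 50 to 80% and in 2 barcodes (1.01%) at 80% or more. The median of UMIs outside the members was 3512.5 at 20 to 50%, 1711 at 50 to 80% and only 170 at 80% or more. Gene counts and the presence of 5 endothelial UMIs therefore follow in part from the share itself, and only the rates per 1000 bear on the name. Whether barcodes at 20 to 80% are a red cell and a vessel cell in one droplet was not tested. Erythroid markers outside the members went the other way from the endothelial rate, at 29.8 UMIs per 1000 at 80% or more, 3.68 at 50 to 80%, 1.57 at 20 to 50% and 0.0255 under 1%.

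**Figure D2:**
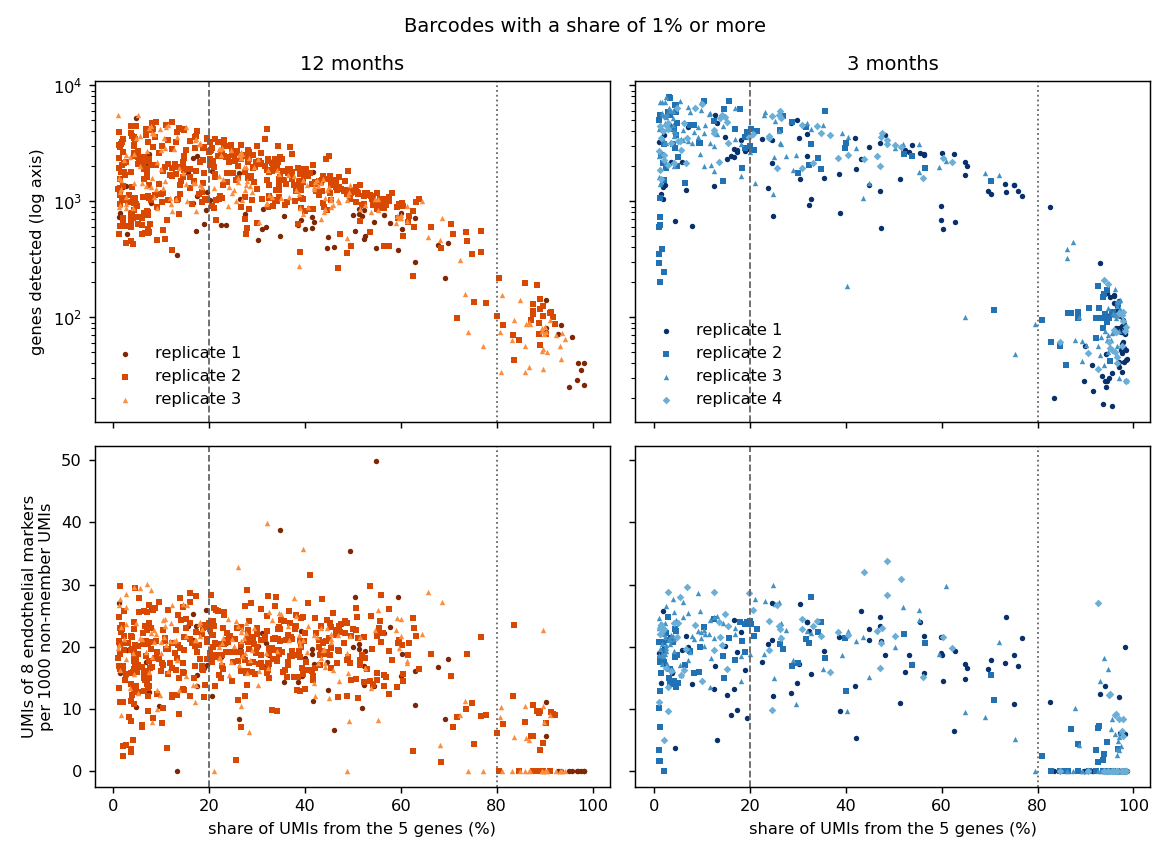
Barcodes with a share of 1% or more, one point each, by share of UMIs from the 5 members (horizontal, %), with genes detected (upper panels, log axis) and UMIs of 8 endothelial markers per 1000 UMIs outside the members (lower panels). Points at 80% or more sit low in both rows, with a median of 76 genes, while those at 20 to 50% have a median of 1651.5 genes.

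The mix of these barcodes differed between the ages. Barcodes at 80% or more were 11 of 58 (19.0%), 24 of 291 (8.25%) and 27 of 123 (21.95%) of the high-share barcodes at 12 months. At 3 months they were 54 of 103 (52.4%), 26 of 47 (55.3%), 36 of 69 (52.2%) and 21 of 49 (42.9%). The groups did not overlap. This split was chosen after its values were seen and is given without a test. As a percentage of all barcodes, those at 80% or more were 0.164, 0.36 and 0.264 at 12 months, against 1.22, 0.567, 0.559 and 0.519 at 3 months. The difference of -0.453 percentage points did not pass (exact permutation p = 0.0571, adjusted p = 0.2), and that threshold too was added after the data were seen.

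Beta chain transcripts exceeded alpha chain transcripts in every library. These are shares of UMIs from one 3′ assay, without correction for transcript length or capture. In high-share barcodes, alpha UMIs were 37.6%, 26.5% and 26.6% of globin UMIs in 12-month replicates 1, 2 and 3. The 3-month replicates 1, 2, 3 and 4 had 33.1%, 32.5%, 34.2% and 33.0%. The 3-month libraries lay within 2 points of each other, and the 12-month libraries lay on both sides of them, replicate 1 above and replicates 2 and 3 below. The mean was 30.2 ± 6.36% at 12 months (SD, n = 3) and 33.2 ± 0.749% at 3 months (n = 4), a difference of -2.99 points (exact permutation p = 0.314, adjusted p = 0.771). Leaving out 12-month replicate 1 moved it to -6.66 points, and leaving out replicate 2 or 3 to -1.11 or -1.20.

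At shares of 1 to 80%, 12-month replicate 1 had the highest alpha percentage of all libraries. It was 35.6 to 39.2 in each of the 5 ranges of share from 1% upward, though at 80% or more 3-month replicate 3 was higher, at 36.3%. Replicates 2 and 3 stayed between 22.9% and 27.3% in those ranges. In barcodes under 20%, alpha UMIs were 38.6%, 25.8% and 24.9% of globin UMIs at 12 months, against 32.5%, 31.9%, 30.8% and 31.8% at 3 months. A library's alpha percentage was thus close in its high-share barcodes and its summed barcodes under 20%, at 31.9 ± 4.04% and 30.9 ± 4.58% (SD, n = 7 each). The difference of 1.03 points, positive in 6 of 7 libraries, did not pass (exact sign-flip permutation test, p = 0.0781, adjusted p = 0.117 over 3 make-up comparisons). Most member UMIs under 20% lay in the barcodes at 1 to 20%, so these sums say little about barcodes under 1%. There alpha was above the high-share value in every library except 12-month replicate 1, which had 33.8% against 37.6%. The gap was widest in 3-month replicate 4, at 49.9% under 1% against 33.0% in high-share barcodes.

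Within the alpha pair the division was nearly constant. Hba-a2 made up 42.2% to 43.9% of alpha UMIs in high-share barcodes of the 7 libraries and 40.8% to 44.5% in other barcodes. The difference averaged 0.62 points and was positive in 5 of 7 libraries (exact sign-flip permutation p = 0.156, also after adjustment over 3). Given the near identity of the transcripts, the level of either gene alone is uncertain.

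Within the beta pair, Hbb-bs, the major gene, gave most UMIs and the share of Hbb-bt, the minor gene, depended on the barcode. In high-share barcodes Hbb-bt was 11.3%, 17.9% and 16.0% of beta UMIs at 12 months and 16.4%, 16.6%, 14.3% and 15.7% at 3 months. Other barcodes of the same libraries had 6.34%, 11.9% and 11.02% at 12 months and 6.91%, 9.80%, 9.89% and 6.30% at 3 months. Every library had more Hbb-bt in its high-share barcodes. The mean was 15.5 ± 2.13% in high-share barcodes and 8.88 ± 2.33% in other barcodes (SD, n = 7 each), a difference of 6.58 points (exact sign-flip permutation p = 0.0156, the smallest possible, adjusted p = 0.0469). It shrank to 2.21 points (adjusted p = 0.0938) with the line drawn at 50%, and to 0.928 points (adjusted p = 0.234) at 80%, where barcodes of intermediate share move to the other side. By age the Hbb-bt percentage overlapped in both kinds of barcode, with differences of -0.671 points (exact permutation p = 0.771) in high-share barcodes and 1.53 points (p = 0.4) in other barcodes, adjusted p = 0.771 for each.

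**Figure D3:**
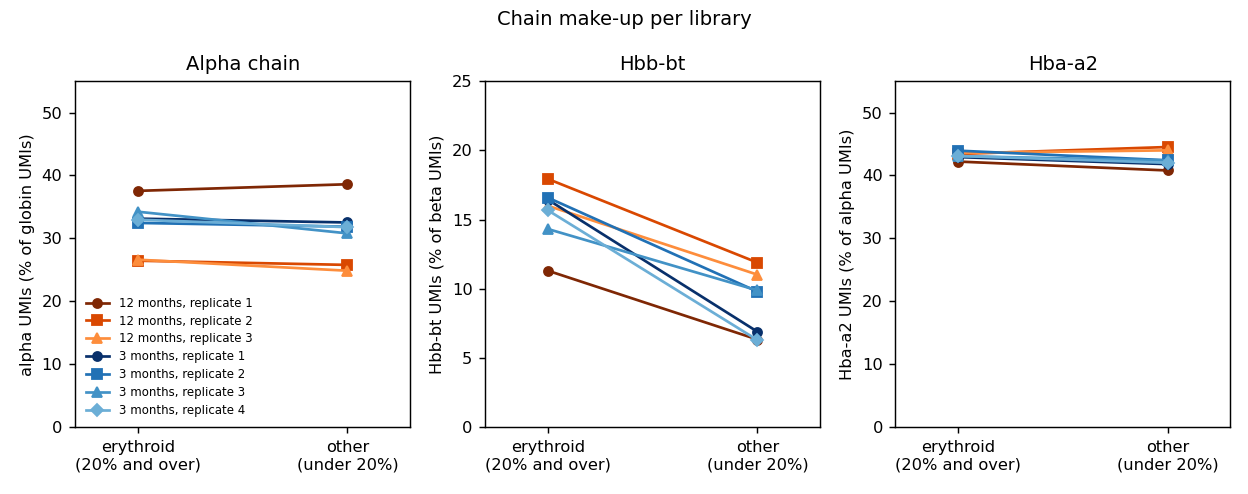
Alpha UMIs as a percentage of globin UMIs, Hbb-bt UMIs as a percentage of beta UMIs and Hba-a2 UMIs as a percentage of alpha UMIs, each library as a line from its high-share (labelled erythroid) to its other barcodes. All 7 Hbb-bt lines fall from left to right, averaging 15.5% and 8.88%, while the Hba-a2 lines stay between 40.8% and 44.5%.

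The Hbb-bt percentage changed with the share of the barcode in a curve. Its median over the 7 libraries was 10.7% in barcodes under 1%, 6.68% at 1 to 5%, 9.68% at 5 to 20%, 15.7% at 20 to 50%, 16.4% at 50 to 80% and 15.7% at 80% or more. The lowest values were at 1 to 5%, where 3-month replicates 1 and 4 had 2.11% and 1.33%. The alpha medians showed no such course, at 30.0% to 34.6% over the same ranges, though single libraries spanned 27.9% to 49.9% under 1%.

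**Figure D4:**
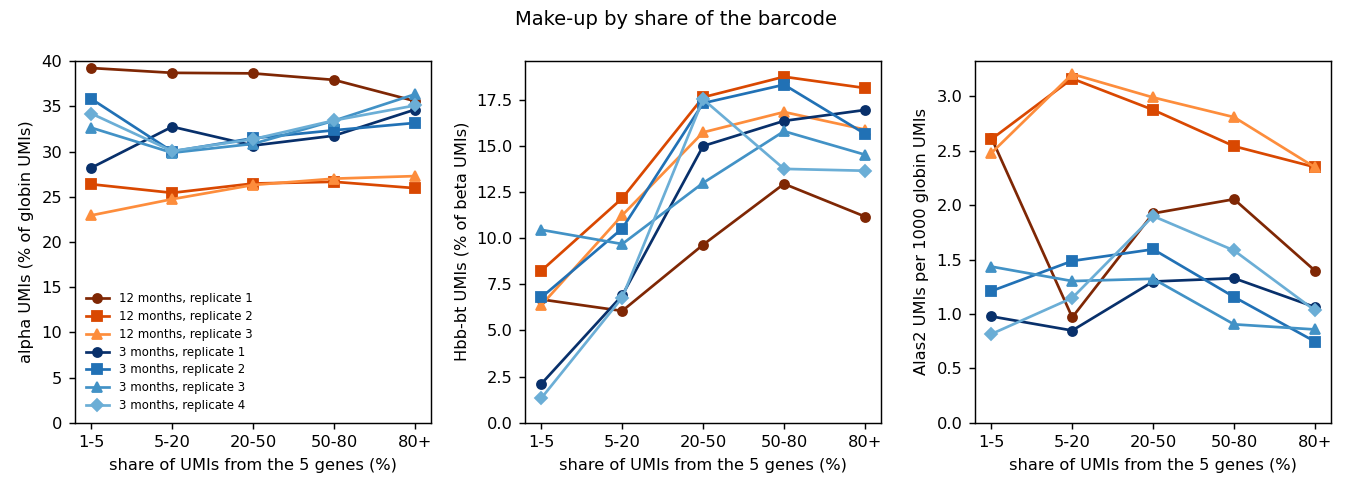
Make-up of globin UMIs by range of share (horizontal, %), each library as a line of its own. The Hbb-bt percentage of beta UMIs has a median of 6.68% at 1 to 5% and 15.7% at 20 to 50%, while 12-month replicate 1 keeps the highest alpha percentage at 1 to 80%.

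Single high-share barcodes varied widely in Hbb-bt. It was under 5% of beta UMIs in 138 of them, 5 to 15% in 197 and 15% or more in 405. These 3 ranges had median globin counts of 932.5, 1861 and 2330 UMIs. Alas2 was detected in 60.9%, 87.8% and 98.8% of their barcodes, at 1.15, 1.40 and 1.97 UMIs per 1000 globin UMIs. Barcodes rich in Hbb-bt thus also held more globin RNA. Alas2 per 1000 globin UMIs was higher at 15% or more than under 5% in 6 of 7 libraries, the exception being 12-month replicate 1. Across the 740 barcodes, which share libraries and depth, Spearman's rho of the Hbb-bt percentage was 0.394 with globin UMIs and -0.157 with the alpha percentage, given as a description.

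The ratio of Alas2 to globin in high-share barcodes separated the libraries of the 2 ages. It stood at 1.83, 2.76 and 2.83 UMIs per 1000 globin UMIs in 12-month replicates 1, 2 and 3. In 3-month replicates 1, 2, 3 and 4 it was 1.18, 1.09, 1.00 and 1.55. All 12-month values lay above all 3-month values. The mean was 2.47 ± 0.555 at 12 months (SD, n = 3) and 1.20 ± 0.240 at 3 months (n = 4), a difference of 1.27 (exact permutation p = 0.0286, the smallest that 35 splits allow, adjusted p = 0.2). Adjusted over 7 comparisons it does not pass. In the barcodes at 80% or more, which carry few endothelial transcripts, the values were 1.40, 2.35 and 2.35 at 12 months, against 1.06, 0.746, 0.858 and 1.03 at 3 months, again without overlap.

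Outside the globins, genes of late red cell development were among those higher in high-share barcodes. A gene was counted when its level in CPM (counts per 1000000 UMIs, here of non-globin UMIs) was higher in high-share than in other barcodes in 7 of 7 libraries, which 1.44% of 14623 genes were. Of the late erythroid and membrane list, 13 of 26 genes with UMIs were. One of these was Slc4a1, the band 3 anion exchanger of the red cell membrane. Bpgm, which makes the 2,3-bisphosphoglycerate that lowers the oxygen affinity of hemoglobin, had a median ratio of 46.2. In the heme synthesis list without Alas2, whose UMIs helped to choose these barcodes, 2 of 11 met the rule. These were Slc25a37, the mitochondrial iron importer, with a ratio of 16.0, and Fech, which inserts iron to complete heme, with 13.3. Of heme breakdown and hemoglobin uptake genes 2 of 9 did, namely Blvrb, a biliverdin reductase, and Slc48a1, a heme transporter. Among erythroid regulators 1 of 9 did, Lmo2, a transcription cofactor. Capillary-like endothelial cells also had more Lmo2 than the 5 classes set against them below. The edgeR log2 fold changes ran from -0.34 in arterial-like to -4.58 in smooth muscle-like cells. No other globin gene met the rule, of 6 with UMIs. The theta globin genes Hbq1a and Hbq1b came nearest to it, with 41 and 32 UMIs in high-share barcodes, and higher in 6 and 5 libraries. The regulator, heme breakdown and other globin lists each had 1 gene lower in 7 of 7 libraries.

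By sheer abundance the non-globin RNA of high-share barcodes looked like that of vessel cells. Gm42418, a locus that overlaps ribosomal RNA, led with 57660 CPM of non-globin UMIs, and had 285900 CPM in the barcodes at 80% or more. Malat1 and Bsg came next, at 31580 and 13820 CPM, and the endothelial genes Cldn5 and Flt1 were among the first 10, at 5243 and 4265. At 80% or more these 4 genes were at only 4600, 2083, 810 and 652 CPM, while the mitochondrial genes of the first 10 were not lower. Oaz1 and Bpgm rose there to 16090 and 14780 CPM, from 1645 and 1174 in all high-share barcodes. Over 106 sums of a library and a cell class, each with at least 20 barcodes, genes among the 8 most like the summed members in log2 level were Mkrn1 (Pearson r = 0.613), Isg20 (0.605), Bpgm (0.588) and Ube2l6 (0.574), of 10826 compared. Without the high-share barcodes the highest were St6galnac3 (0.613), Polk (0.610) and Noct (0.594) over 99 sums. The sums share libraries and depth, and these values are descriptive.

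Barcodes under 20% carried member UMIs at 937, 4228 and 1787 CPM of all UMIs in 12-month replicates 1, 2 and 3. The 3-month replicates 1, 2, 3 and 4 had 1550, 1977, 1689 and 1394 CPM. Replicate 2 at 12 months was the highest and replicate 1 the lowest of all 7. The share of all barcodes with no member UMI was, conversely, lowest in replicate 2 and highest in replicate 1 at 12 months. It was 94.7%, 24.4% and 73.7% at 12 months and 58.4%, 38.4%, 61.9% and 77.1% at 3 months. Restricted to barcodes under 1%, the level was 37.5, 447 and 136 CPM at 12 months, against 153, 197, 114 and 89.3 at 3 months. Most member UMIs of barcodes under 20% therefore lay in the 429 barcodes at 1 to 20%. On the log2 scale the mean level under 20% was 10.91 ± 1.09 at 12 months (SD, n = 3) and 10.68 ± 0.21 at 3 months (n = 4), and the difference of 0.23 became -0.34 without 12-month replicate 2.

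None of the 5 members passed the test by age in these barcodes. The test was edgeR's quasi-likelihood test with Benjamini-Hochberg adjustment over 14913 genes, of which 1.72% were called at an adjusted p under 0.05. With one library left out, that count of 256 genes became 28 to 1074. Of the members 1, Alas2, had an unadjusted p under 0.05, and the same 1 passed with DESeq2. Alas2 had 1.40, 13.3 and 5.64 CPM at 12 months, against 1.46, 2.89, 2.26 and 1.54 at 3 months. The log2 fold change of Alas2 was 1.81 ± 0.59 (SE, adjusted p = 0.157 by edgeR, 0.0318 by DESeq2). Hbb-bt had 36.4, 372 and 147 CPM at 12 months and 72.1, 132, 115 and 59.9 at 3 months. Its log2 fold change was 1.02 ± 0.63 (adjusted p = 0.458 by edgeR). Hbb-bs, Hba-a1 and Hba-a2 had log2 fold changes of 0.59, 0.28 and 0.37, and all of these turned negative without 12-month replicate 2. In capillary endothelial cells, where 3.92% of 11355 genes were called by age, none of the 4 globin members was, 0 had an unadjusted p under 0.05 and 0 passed with DESeq2. Alas2 did not pass the filter on low counts there. Hbb-bt was at 1.07 ± 0.56 (adjusted p = 0.323). Of the other listed genes, 3 were higher at 12 months in barcodes under 20%. These were Cygb, a cytoglobin, with a log2 fold change of 1.11 (adjusted p = 0.0426), Tent5c at 2.53 (adjusted p = 0.034) and Ermap at 2.56 (adjusted p = 0.0383), both from the late erythroid list. In that list 2 of 17 tested genes were called higher, as were 1.31% of all genes, with a median log2 fold change of 0.17, against -0.03 over all genes tested. Of the classes compared below, both genes averaged highest in microglia-like cells: Tent5c averaged 146 CPM in microglia-like and 1.83 in capillary-like cells, and Ermap 6.56 and 0.318. Microglia-like cells held 968 of the 1690 Tent5c UMIs under 20% and 46 of the 93 Ermap UMIs, with 0 of 17 Ermap UMIs in 12-month replicate 2. Microglia-like cells numbered 1048, 91 and 967 in 12-month replicates 1, 2 and 3, against 178, 185, 136 and 115 at 3 months. Cygb was highest in pericyte-like cells, which numbered 32 to 281 per library at 12 months and 56 to 102 at 3 months. Levels inside these classes differed as well. In pericyte-like cells Cygb was at 76.7, 62.9 and 116 CPM at 12 months, against 18.0, 13.2, 24.1 and 40.2 at 3 months. In microglia-like cells Tent5c was at 236, 165 and 171 CPM at 12 months, against 84.5, 104, 103 and 161 at 3 months. Ermap overlapped there, at 9.04, 0 and 7.91 CPM against 0, 8.41, 10.1 and 10.5. The parts of cell numbers and of levels inside a class in the changes were not tested.

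Among the cell classes, named "-like" from their marker genes, hemoglobin UMIs were found in all those present in every library. High-share barcodes are left out of these classes. The 6 classes compared below leave out platelet-like cells and the unnamed endothelial clusters E2, E3 and E6, also present in every library, whose medians were 329, 2488, 1171 and 755 CPM of member UMIs. Per library, pericyte-like cells had 45.1 to 14680 CPM of member UMIs with a median of 5487. The medians were 2246 in venous-like, 1803 in arterial-like, 173 in microglia-like, 72.8 in smooth muscle-like and 1141 in capillary-like endothelial cells. When these 6 classes are put in order of their medians, the ranges of all neighbours overlapped. A few barcodes carried these levels: 16 of 876 pericyte-like, 29 of 2070 venous-like and 28 of 2855 arterial-like cells had a share of 1% or more, against 114 of 14949 capillary-like cells. In microglia-like cells 2 of 2720 did and in smooth muscle-like cells 0 of 1206, which allows a share of up to 0.249%. Choroid plexus-like cells had 13 of 158, and 12 of these were among the 25 such cells of 12-month replicate 2.

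Against capillary-like cells of the same libraries, Hbb-bt was higher in venous-like and pericyte-like cells. It averaged 169 ± 154 CPM in venous-like cells and 53.1 ± 52.6 in capillary-like cells (SD, n = 7 each). The edgeR log2 fold change was 1.53 ± 0.25 (SE, adjusted p = 8.0e-05). Hbb-bs was higher in venous-like cells by 0.65 ± 0.24 (adjusted p = 0.0358), a call lost under DESeq2 (adjusted p = 0.157) and without any one of 4 libraries. Venous-like cells thus had 2 of 4 globin members called higher, with 22.8% of 10814 genes called higher. In pericyte-like cells 1 of 4 was, with 13.3% of 9039 genes called higher. That member was again Hbb-bt, at 491 ± 481 CPM and a log2 fold change of 2.47 ± 0.70 (adjusted p = 0.0137 by edgeR). This call was lost under DESeq2 (adjusted p = 0.0702) and without 12-month replicate 1 (0.0536) or 3-month replicate 3 (0.0595). No member was called in arterial-like cells, by edgeR or DESeq2, where edgeR called 41.1% of 10190 genes. Their largest log2 fold change was that of Hbb-bt, 0.53 ± 0.23 (adjusted p = 0.065), the 1 member with an unadjusted p under 0.05.

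All 4 globin genes were lower in smooth muscle-like than in capillary-like cells, with 36.1% of 9410 genes called lower. The edgeR log2 fold changes were -3.58 for Hbb-bs, -3.57 for Hba-a1, -3.80 for Hba-a2 and -2.23 for Hbb-bt, the largest adjusted p being 2.56e-10. In microglia-like cells 3 of 4 were lower, with 36.5% of 9988 genes called lower. There the values were -2.49 for Hbb-bs, -2.23 for Hba-a1 and -1.99 for Hba-a2. Hbb-bt was at -0.37 (adjusted p = 0.478 by edgeR) and passed with DESeq2 at -1.18 (adjusted p = 0.0453).

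The direction of these differences depended on the barcodes at 1% or more. With barcodes under 1% only, the direction turned in arterial-like, venous-like and pericyte-like cells. The log2 fold changes against capillary-like cells were then -0.68 to -0.87 in arterial-like cells, with 4 of 4 members called lower (19.7% of genes), and -0.76 to -1.26 in venous-like cells, with 4 of 4 (21.7%). Pericyte-like cells had -0.71 to -0.88, with 3 of 4 (11.5%). Smooth muscle-like cells stayed lower at -0.64 to -1.43, with 4 of 4 (36.1%), and microglia-like cells had 1 of 4 called lower (36.0%), Hba-a1 at -0.51. The limit of 1% was set on the same member UMIs that were then compared. The calls under 1% therefore cannot show by themselves that the classes differ in the members. Member UMIs under 1% per library had medians of 106 CPM in pericyte-like, 103 in arterial-like, 72.8 in venous-like, 130 in microglia-like, 72.8 in smooth muscle-like and 187 in capillary-like cells. Per cell the medians were 0.732, 0.559, 0.969, 0.471, 0.459 and 0.590 member UMIs in the same order. The classes also differed in depth, with median UMIs of 2663, 3161, 6035.5, 1887, 3880.5 and 2216 per cell. Depth mattered inside the capillary-like class too. Its deepest 25% of cells had 1.83 to 3.96 times the UMIs of the shallowest 25%, 0.714 to 3.10 times the member UMIs per cell, and only 0.352 to 0.705 times the member CPM. The part that depth plays in the class differences was not tested.

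Among cells under 1%, the percentage with any member UMI had a similar median over libraries in all these classes. This median was 38.0% in pericyte-like, 36.8% in venous-like, 33.7% in arterial-like, 36.8% in microglia-like, 37.0% in smooth muscle-like and 35.6% in capillary-like cells. Inside a library the classes could differ more. In 3-month replicate 4 the percentages were 29.1%, 29.4%, 18.3%, 9.57%, 15.9% and 19.0% in the same order. After each cell was thinned to 1000 UMIs, which leaves out shallower cells, the medians were 10.7%, 8.26%, 10.5%, 13.2%, 10.0% and 16.5% in that order. Thinning left out 64 pericyte-like, 80 venous-like, 188 arterial-like, 501 microglia-like, 26 smooth muscle-like and 1551 capillary-like cells. No share in empty droplets was measured, so RNA made by a cell and free RNA cannot be told apart in such counts.

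An embryonic globin gene behaved otherwise. Hbb-y, the epsilon-like beta globin of the yolk sac stage, had 745 UMIs in all, of which 1 was in a high-share barcode. It was seen in 99 of 2855 arterial-like cells (3.47%) and 105 of 2070 venous-like cells (5.07%), against 18 of 14949 capillary-like cells (0.12%). One arterial-like cell held 52 Hbb-y UMIs. Arterial-like cells averaged 22.4 ± 10.9 CPM of Hbb-y and venous-like cells 8.81 ± 3.86, against 1.97 ± 3.19 in capillary-like cells (SD, n = 7 each). The log2 fold changes were 4.36 ± 0.33 in arterial-like cells (SE, adjusted p = 1.82e-10 by edgeR) and 3.02 ± 0.34 in venous-like cells (adjusted p = 9.18e-07). Capillary-like cells held 46 Hbb-y UMIs in all, up to 10 in a single cell, against 312 in arterial-like and 187 in venous-like cells. The sizes of these folds thus rest on a small reference count. A member UMI was present in 46.5% of arterial-like cells with Hbb-y and in 36.5% of those without, at median depths of 5865 and 3086 UMIs. In venous-like cells the percentages were 39.1 and 37.4, and in capillary-like cells 16.7 and 37.1.

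Cytoglobin and neuroglobin, oxygen-binding globins outside the red cell, also differed between classes. Cygb was higher in pericyte-like than in capillary-like cells, at 50.2 ± 37.5 and 0.187 ± 0.396 CPM (SD, n = 7 each), with a log2 fold change of 7.73 ± 0.40 (SE, adjusted p = 4.6e-12 by edgeR). Ngb, the neuroglobin gene, was higher in smooth muscle-like cells, at 14.6 ± 9.92 CPM against 0.291 ± 0.189 in capillary-like cells, with a log2 fold change of 5.24 ± 0.37 (adjusted p = 8.89e-12). Pericyte-like cells held 226 Cygb UMIs and smooth muscle-like cells 71 Ngb UMIs, but capillary-like cells only 7 and 14 in all. The sizes of these 2 folds and their p-values thus rest on a nearly empty reference. Tfrc, the transferrin receptor that brings iron into cells, was lower than in capillary-like cells in all 5 classes, with log2 fold changes of -1.33 in pericyte-like to -4.92 in microglia-like cells (largest adjusted p = 1.05e-07 by edgeR). Hmox1, which opens the heme ring, was higher in microglia-like cells by 3.53 (adjusted p = 6.4e-11 by edgeR) and in venous-like cells by 1.34 (adjusted p = 8.85e-08) on the log2 scale. Of the heme breakdown and uptake list, microglia-like cells had 5 of 7 tested genes higher, as were 32.4% of all genes, and 1 lower, with a median log2 fold change of 0.82 against -0.06 over all genes.

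**Figure D5:**
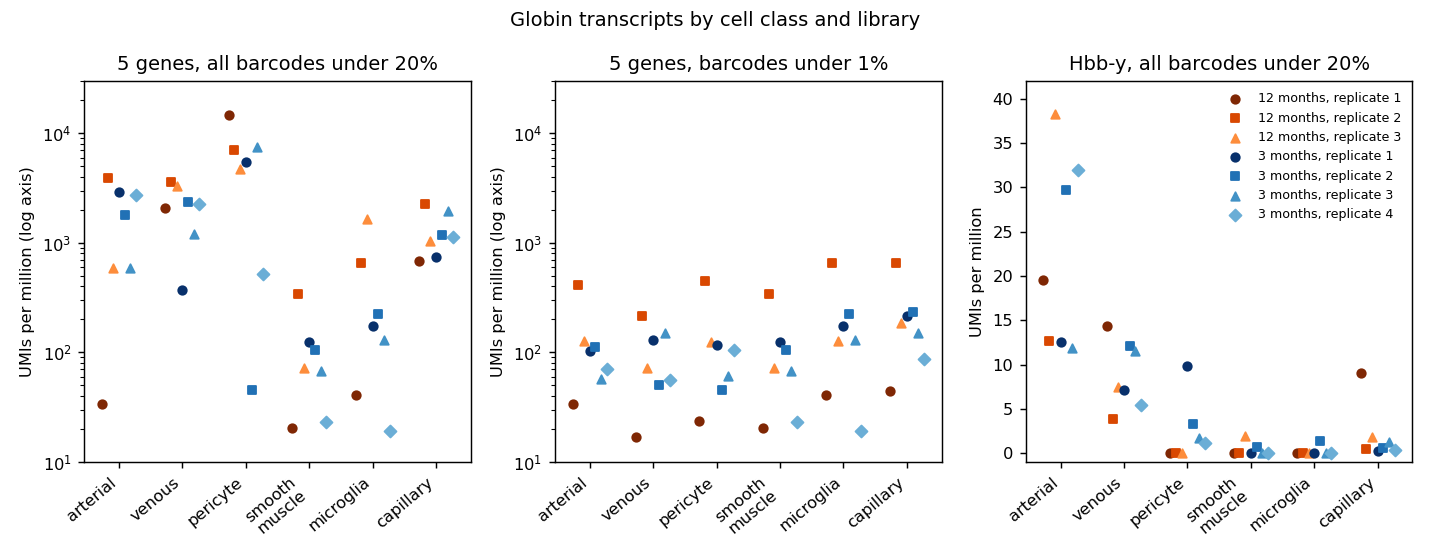
Globin transcripts by cell class, each point a library, as CPM on a log axis for the summed members in barcodes under 20% and under 1%, and on a linear axis for Hbb-y. Pericyte-like cells have the highest median under 20% (5487) and capillary-like cells the highest under 1% (187), and Hbb-y is raised in arterial-like and venous-like cells.

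Platelet-like cells stood apart in chain make-up in the pooled counts. They were found when clusters led by endothelial markers were clustered again. Whether they were platelets or vessel cells carrying platelet RNA was not tested. Under 1%, alpha chains gave 165 of their 318 globin UMIs, or 51.9%, whereas the other classes present in every library had 27.0% to 36.2%. The excess came from the 3-month libraries, and the ages were not compared by a test. Alpha gave 1 of 2, 35 of 112 and 2 of 8 globin UMIs in 12-month replicates 1, 2 and 3. In 3-month replicates 1, 2, 3 and 4 it gave 22 of 32, 36 of 61, 32 of 47 and 37 of 56. A few vessel barcodes were also rich in alpha. Of 505 barcodes under 20% with at least 20 globin UMIs, 22 had 70% alpha or more, of which 1 was from the 12-month libraries. None of the 740 high-share barcodes did. Examples were 77 alpha UMIs of 80 in an unnamed endothelial cluster (E2) of 3-month replicate 1, and 104 of 113 in the same cluster of 3-month replicate 4. At the other end, 19 of the 505 had less than 15% alpha, of which 15 were from the 12-month libraries, as had 3 high-share barcodes. These barcodes were picked after their values were seen, and no test is given.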

How the data were processed

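UMI counts per gene and barcode were deposited by the authors as filtered 10x matrices, made with Cell Ranger 4.0.0 (12 months) and 6.1.1 (3 months), per the file headers, on mm10, per the submitters' processing notes. The sources used here do not give settings for cell calling or introns. The 5 members and the gene lists were chosen with earlier results of these data known, and named genes followed a fixed rule of threshold and smallest p.

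Member UMIs were divided by all UMIs of a barcode. Make-up was summed per library and compared by exact permutation (35 splits by age, 128 sign flips within libraries). Barcodes with at least 500 genes and at most 15% mitochondrial UMIs were clustered with Seurat 5.3.0 (R 4.3.3, 2000 variable features without members, erythroid list genes, mitochondrial, ribosomal or sex genes, 30 components, resolution 0.5), after scrublet in scanpy 1.11.5 had marked doublets (0.8% per 1000 barcodes). Clusters in which endothelial markers had the highest mean level among the main marker lists were clustered again in the same way. The endothelial, pericyte-like and platelet-like classes came from this second round. Markers named the clusters. Sums per library and class were tested with edgeR 4.0.16 (quasi-likelihood, TMM, filterByExpr), checked on simulated data, with DESeq2 1.42.0 as an alternative. Per-cell shares were also compared after thinning to 1000 UMIs. Some genes that met the rule for named genes are not reported here.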

Additional observations from a re-analysis of the deposited data

Results flagged for a closer look

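The percentage of barcodes with a member share of 20% or more had one library far from the rest of its group. At 3 months replicate 1 reached 2.322%, while the other libraries of that age lay between 1.02% and 1.21%, so that the gap to the next library was 0.857 of the whole range of the group. This was the single such case among 36 values examined, and chance alone marks about 1 in 20. The 12-month group, with 3 libraries, was too small for this check.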

How the results depend on the processing

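In the permutation tests over libraries, no difference by age in chain make-up or in the ratio of Alas2 to globin passed its threshold under the settings tried. Alas2 by age in barcodes under 20% passed with DESeq2 alone (1.82 on the log2 scale, adjusted p = 0.0318). With the line for high-share barcodes at 10%, the alpha difference between high-share and other barcodes was -0.99 points, and with other barcodes limited to those under 1% it was -3.16. At 50% the high-share percentage of barcodes differed by -0.216 points by age, the Hbb-bt percentage by 0.366 in high-share and -0.167 in other barcodes, and the Hbb-bt difference within libraries was 2.21. At 80%, a line added after the data were seen, the same values were -0.453, -0.0938 in other barcodes and 0.928. The summed level by age was -0.0057 on the log2 scale under 1%.

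Leaving out one library at a time gave -0.372 to 1.38 points for the high-share percentage by age, -0.34 to 0.75 for the log2 level in other barcodes, and -6.41 to 0.45 for alpha in other barcodes. For Hbb-bt by age in high-share barcodes it gave -2.10 to 1.21. Within libraries it gave 0.624 to 1.37 for alpha, which passed without 12-month replicate 1 (exact sign-flip permutation, adjusted p = 0.0469). Hbb-bt gave 6.09 to 6.94, at the smallest p that 6 libraries allow (0.0312, exact), which adjusts to 0.0938 unless alpha passes too. Leaving out 12-month replicate 2 turned the high-share percentage and the level, 12-month replicate 3 turned alpha and 12-month replicate 1 turned Hbb-bt.

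Genes called by age in barcodes under 20% numbered 256, against 1068 with DESeq2, 565 without the count filter, 153 with sums thinned to the smallest library and 28 to 1074 with one library left out. In capillary-like cells the 445 became 1193, 183 and 250 to 1264, with no filter, thinning and one library left out. Thinned class sums called 2449 genes in arterial-like, 2631 in venous-like, 354 in pericyte-like, 2501 in smooth muscle-like and 2208 in microglia-like cells, and 3663 were called in pericyte-like cells without the filter. Replicate numbers did not pair the samples, since same-numbered libraries had correlations of 0.00731, 0.325 and -0.0844. With the replicate number as a block, 12 genes were called in barcodes under 20% and 202 in capillary-like cells, Hba-a2 by age was -0.023 in capillary-like cells, and no member was called.

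Among single members, barcodes under 1% turned Hbb-bt, Hbb-bs, Hba-a1 and Hba-a2 against capillary-like cells to -0.87, -0.84, -0.85 and -0.68 in arterial-like, -1.26, -1.02, -0.76 and -1.08 in venous-like and -0.82, -0.88, -0.71 and -0.83 in pericyte-like cells, and Hba-a1 by age in capillary-like cells to 0.58 (0.12 with at least 1000 genes per cell). DESeq2 gave -0.13, -0.22 and -0.13 for Hbb-bs, Hba-a1 and Hba-a2 in arterial-like cells, and kept doublets gave -0.093 for Hbb-bs. Leaving out one library turned these members without a call: in arterial-like cells Hbb-bs (-0.32 to 0.41), Hba-a1 (-0.23 to 0.42) and Hba-a2 (-0.10 to 0.46). By age in capillary-like cells it turned Hbb-bs (-0.39 to 0.64), Hbb-bt (-0.33 to 1.56), Hba-a1 (-0.69 to 0.15) and Hba-a2 (-0.53 to 0.36). In barcodes under 20% the same held for Hbb-bs (-0.19 to 1.00), Hba-a1 (-0.33 to 0.55) and Hba-a2 (-0.31 to 0.68). Hbb-bt by age in capillary-like cells passed with at least 1000 genes per cell (1.55, adjusted p = 0.0341 by edgeR) and without the count filter (1.07, adjusted p = 1.81e-08), and missed in the other settings. The cause of these changes was not tested. Depth limits the counts of Alas2, with 12 to 320 UMIs per library under 20%.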
